A study of Mus musculus with 6 samples.

Results

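The BMP group comprised 10 genes: the ligands Bmp2, Bmp4, Bmp6 and Bmp7, the receptors Bmpr1a and Bmpr2, the inhibitors Grem1 and Bambi, and the target genes Id1 and Id3. They were taken by symbol from the 57132 gene rows of a mouse RNA sequencing count table, and all 10 were among the 19927 genes with enough counts to be tested. Glomeruli, the filtering units of the kidney, were profiled in 6 libraries, 3 from Cre-/Setdb2fl/fl mice (Cre-negative) and 3 from Cre+/Setdb2fl/fl mice (Cre-positive). All 6 carried floxed Setdb2 alleles and all were labelled DKD, diabetic kidney disease, so no library stood for a healthy kidney or for unfloxed Setdb2. The sources used here give neither the Cre driver nor the diabetes model, nor the mice's age or sex. The design text of the series asks how SETDB2, a putative histone H3 lysine 9 methyltransferase, acts from podocytes on the course of this disease. Whether the 3 libraries of a genotype stem from separate mice is not stated in the labels. All p-values therefore measure spread among these libraries only. That spread may be technical in part or, in the Cre-negative group, in whole.

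Bone morphogenetic proteins are secreted dimers of the TGF-beta superfamily. They bind type I and type II receptor kinases, which phosphorylate SMAD1, SMAD5 and SMAD9, and these enter the nucleus with SMAD4 and switch on target genes, the Id genes among the most direct. Secreted antagonists such as gremlin trap the ligands before they reach a receptor. In the kidney, BMP7 is needed for nephron formation and is known for opposing TGF-beta driven fibrosis, while gremlin 1 is known for reappearing in diabetic nephropathy.

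Total counts ranged from 53571438 to 58807042 per library. The targeted gene Setdb2 was at 8.37 ± 1.62 CPM (counts scaled to a common library size) in Cre-negative and 7.70 ± 0.371 CPM in Cre-positive libraries (SD, n = 3; adjusted p = 0.738), so these gene-level counts do not check the genotype labels. Cre-positive replicate 2 stood apart in Xist, the non-coding RNA of the inactive X chromosome of female cells, with 24 counts against 36474 to 47632 in the other 5. The Cre-positive group may thus mix sexes where the Cre-negative one does not, and the part of sex in the differences was not tested. Cre-negative replicate 1 stood apart in 8 cell cycle genes, whose summed level was 296 CPM against 100.1 to 142 CPM in the other 5. The isolates held tubule RNA as well as glomerular RNA. The summed level of 10 proximal tubule markers was 10212 to 14866 CPM and that of 10 podocyte markers 518 to 809.7 CPM. In such bulk samples, fewer cells of a type and less RNA per cell cannot be told apart.

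In the Cre-positive libraries Grem1 and Id1 fell and Bmp2 rose, and the other 7 genes of the group did not pass the test. Over all genes tested, 7.55% passed in either direction (3.73% higher and 3.82% lower), against 1 higher and 2 lower of these 10. The median log2 fold change of the 10 was -0.18, against -0.001 over all genes tested. All values of the test are from edgeR's quasi-likelihood fit with Benjamini-Hochberg adjustment over all 19927 genes, and a gene passed at an adjusted p under 0.05. For the genes that passed, log2 CPM was also compared by exact permutation of the libraries (two-sided), which cannot give a p below 0.1 with 3 against 3 libraries.

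**Figure D1:**
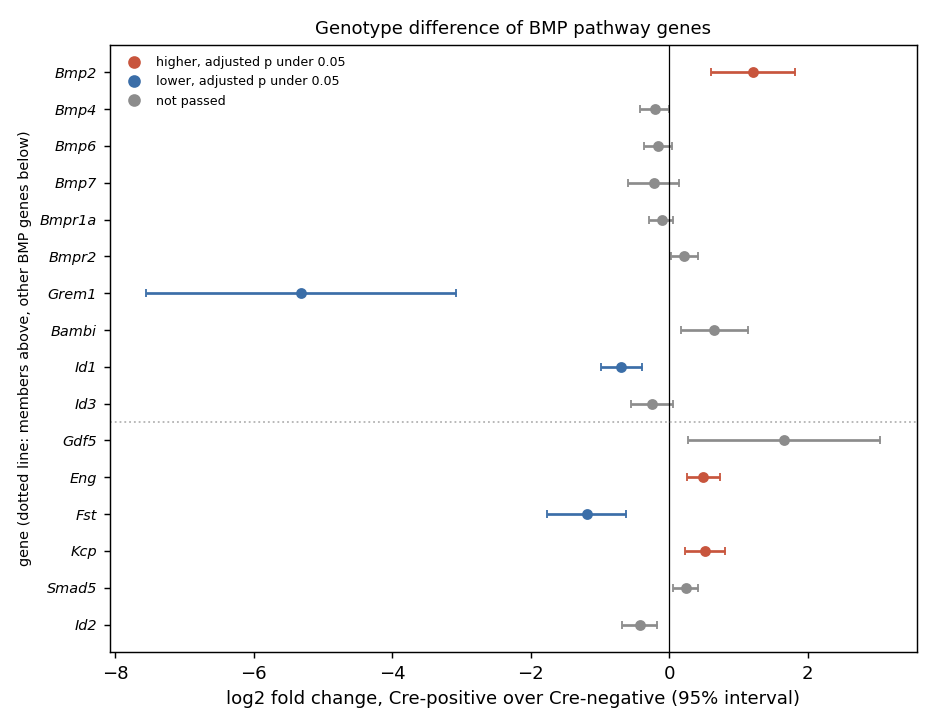
Log2 fold change of each gene, Cre-positive over Cre-negative (horizontal axis), with 95% confidence intervals from edgeR's fit; the 10 genes of the group stand above the dotted line and 6 other BMP pathway genes below it. Grem1 at -5.31 and Id1 at -0.69 lie left of 0, and Bmp2 at 1.21 lies right of it.

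Promoter sequence is shown for Grem1, the gene with the largest change in the group, and for Id3, a target gene that did not pass, to set an antagonist beside a target of the pathway. Both are from RefSeq on GRCm38.p6, a different build from the GRCm39 of the submitters' processing notes, and run 5′ to 3′ on the gene's own strand from 250 bases before the start to 50 after it. Capitals mark GGCGCC, a GC-rich element that BMP-activated SMADs are known to bind. It reads the same on both strands and was the only motif searched. The Grem1 window is chr2:113758599-113758898 on the minus strand and the Id3 window chr4:136143572-136143871 on the plus strand.
Grem1: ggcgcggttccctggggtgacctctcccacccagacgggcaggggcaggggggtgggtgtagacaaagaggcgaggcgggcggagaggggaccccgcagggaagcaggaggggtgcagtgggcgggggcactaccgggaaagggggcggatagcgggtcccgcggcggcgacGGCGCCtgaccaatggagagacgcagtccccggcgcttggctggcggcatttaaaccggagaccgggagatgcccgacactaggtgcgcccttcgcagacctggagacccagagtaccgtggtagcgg
Id3: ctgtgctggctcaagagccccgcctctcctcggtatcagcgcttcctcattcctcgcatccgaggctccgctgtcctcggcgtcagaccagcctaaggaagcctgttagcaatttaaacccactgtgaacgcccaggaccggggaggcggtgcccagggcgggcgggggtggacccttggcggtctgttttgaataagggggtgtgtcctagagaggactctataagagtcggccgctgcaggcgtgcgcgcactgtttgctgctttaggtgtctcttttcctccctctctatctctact
The element occurred 1 time in the Grem1 window and 0 times in the Id3 window. Promoters of 6 of the 10 genes were examined, and 3 of the 6, Grem1, Bmpr1a and Bmpr2, held it, against 11.9% of 32817 promoters of the same length. The 6 windows were GC-rich, at 59.3% to 79.3% G and C against a median of 52.7% over all promoters. Bmp2, Bmp7, Bambi and Id1 are not among the 6. A match describes these letters only.

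Per length of exon, the Id genes stood highest in the group and Grem1 and Bmp2 lowest. Lengths were exon unions from GENCODE M21, and levels are in CPM per kilobase. In the Cre-negative libraries Id3 was at 53.7 ± 9.76 CPM per kilobase and Id1 at 50.4 ± 9.17 (SD, n = 3), and the ranges of the 2 genes overlapped. Bmp6 at 20.1 ± 2.27 and Bmp4 at 20.1 ± 1.44 CPM per kilobase followed, also with overlapping ranges. Bmp7 at 14.5 ± 3.57 CPM per kilobase and Bmpr1a, whose 3 libraries lay between 11.4 and 12.6, overlapped in the same way. Bmpr2 at 3.13 ± 0.249 and Bambi at 1.37 ± 0.389 CPM per kilobase were each apart from their neighbours in this order. Bmp2 at 0.460 ± 0.124 and Grem1 at 0.428 ± 0.294 CPM per kilobase overlapped at the bottom. The order of the 10 means was the same in the Cre-positive libraries, where the ranges of Id3 and Id1 no longer overlapped (45.1 ± 4.18 and 31.2 ± 1.79 CPM per kilobase), nor did those of Bmp2 and Grem1 (1.06 ± 0.122 and 0.0102 ± 0.00896).

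**Figure D2:**
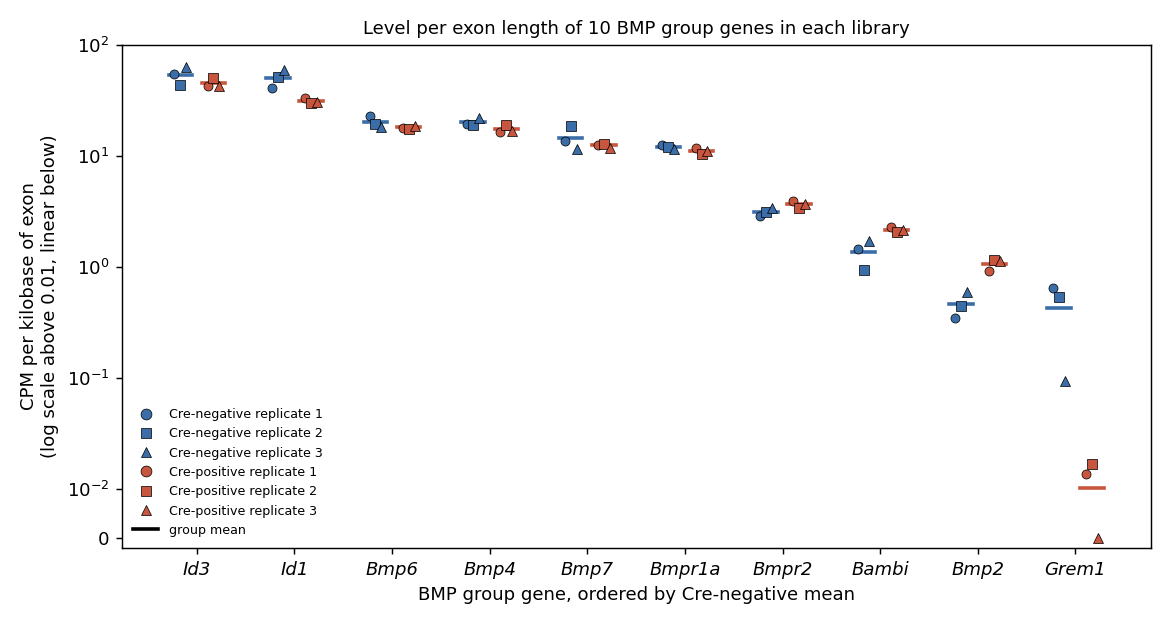
Level of each gene in each library in CPM per kilobase of exon, on an axis that is logarithmic above 0.01 and linear below, with genes ordered by their Cre-negative mean; points are libraries and bars group means. Id3 and Id1 stand highest, and Grem1 in the Cre-positive libraries lies at or below 0.0169.

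Of the 4 ligands, Bmp2 rose and Bmp4, Bmp6 and Bmp7 did not pass. Bmp2, a ligand that prefers type I receptors such as BMPR1A, had 74, 89 and 118 counts in Cre-negative replicates 1, 2 and 3 and 175, 232 and 214 in the Cre-positive ones. In CPM these were 1.22, 1.59 and 2.10 against 3.28, 4.07 and 3.99, so every Cre-positive library lay above every Cre-negative one. Bmp2 was thus at 2.31 times the Cre-negative level, with a log2 fold change of 1.21 (adjusted p = 0.0290, SE 0.27, 95% interval 0.60 to 1.81) and an exact p of 0.1. The call of Bmp2 ended without Cre-negative replicate 1 (adjusted p = 0.0579) or 2 (0.0757) and without Cre-positive replicate 1 (0.0675), 2 (0.108) or 3 (0.115), with log2 fold changes of 1.03 to 1.43 over the 6 fits that leave out 1 library. Markers of glomerular endothelium moved the same way: 8 of 10 rose, none fell, and their summed level was 659 to 793 CPM in Cre-negative and 1004 to 1092 CPM in Cre-positive libraries. Podocyte markers, with 3 of 10 higher, summed to 518 to 594 CPM in Cre-negative and 714 to 809.7 CPM in Cre-positive libraries. Of 6 loop and distal tubule markers 3 rose, with sums of 5977 to 7441 and 9600 to 10225 CPM. Of 10 proximal tubule markers 5 rose, with overlapping sums of 10212 to 14089 and 13130 to 14866 CPM. Of 6 smooth muscle and renin markers 1 rose, with sums of 221 to 328 and 335 to 363 CPM. Of 7 collecting duct markers 3 rose, with overlapping sums of 683 to 1131 and 737 to 897 CPM. No marker of these lists fell, and the shares over all genes tested were 3.73% higher and 3.82% lower. The part of these cells in the Bmp2 difference was not tested.

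Bmp4, which shares its receptors with Bmp2 and acts early in kidney development, stood at 43.9, 42.6 and 48.7 CPM in the Cre-negative and 36.3, 43.0 and 37.6 CPM in the Cre-positive libraries. The groups overlapped through Cre-positive replicate 2. The log2 fold change of -0.21 (SE 0.0930) had an adjusted p of 0.215, and its interval allowed 0.747 to 1.00 times the Cre-negative level. A gene model on the opposite strand, Gm15217, overlaps exons of Bmp4 and had 1500 counts over the 6 libraries. The strand setting of the counting is not given, so reads of the overlapping stretch cannot be told apart.

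Bmp6, an iron-regulatory ligand that is also expressed in kidney, stood at 88.1, 75.7 and 70.9 CPM in Cre-negative and 69.1, 68.1 and 72.8 CPM in Cre-positive libraries. Cre-negative replicate 1 was highest, and the other 5 lay close together. Bmp6 had a log2 fold change of -0.16 (adjusted p = 0.326, SE 0.0893). Txndc5 overlaps exons of Bmp6 on the opposite strand and had 49019 counts in all, so the Bmp6 values are uncertain in the same way. Bmp7, the ligand that podocytes and distal nephron cells are known to make, stood at 54.6, 73.9 and 45.9 CPM in Cre-negative and 50.4, 51.6 and 47.4 CPM in Cre-positive libraries. All 3 Cre-positive libraries lay within the Cre-negative range, which Cre-negative replicate 2 stretched upward. The log2 fold change of -0.22 (SE 0.16, adjusted p = 0.455) allowed 0.664 to 1.10 times the Cre-negative level.

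**Figure D3:**
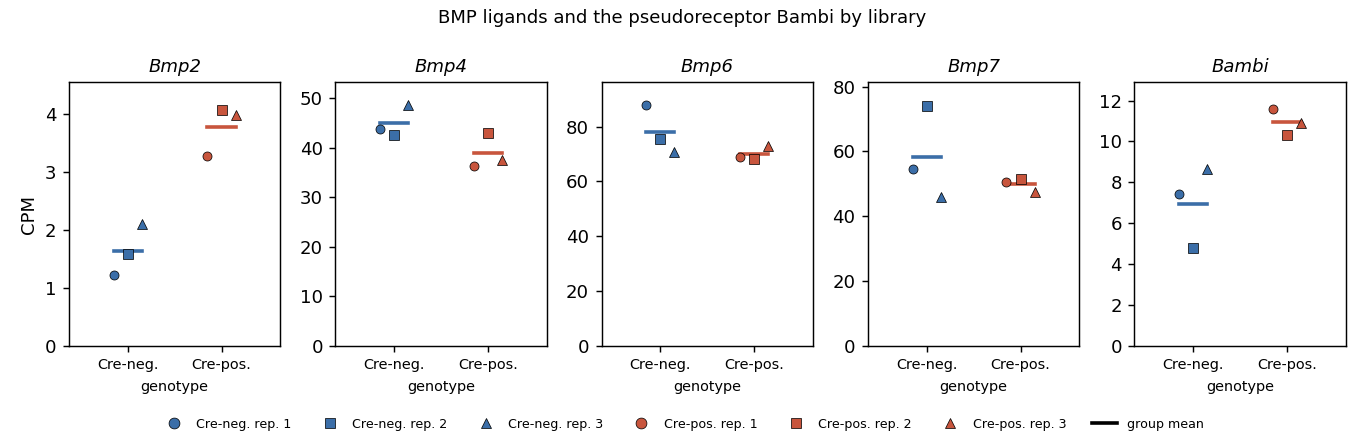
CPM of Bmp2, Bmp4, Bmp6, Bmp7 and Bambi (vertical axes from 0, one scale per gene) in the 3 Cre-negative and 3 Cre-positive libraries, with bars at the group means. For Bmp2 and Bambi all 3 Cre-positive points lie above the Cre-negative ones, while the groups overlap for the other 3 genes.

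Neither receptor passed. Bmpr1a, the type I receptor kinase ALK3, stood at 80.3, 76.1 and 72.1 CPM in Cre-negative and 75.0, 65.5 and 70.8 CPM in Cre-positive libraries, with overlapping groups and a log2 fold change of -0.11 (adjusted p = 0.431, SE 0.0774). Bmpr2, the type II receptor that activates it, stood at 52.0, 56.1 and 61.0 CPM in Cre-negative and 70.4, 60.3 and 65.5 CPM in Cre-positive libraries. Cre-positive replicate 2 lay just under Cre-negative replicate 3, and the other 2 Cre-positive libraries above all Cre-negative ones. The log2 fold change of Bmpr2 was 0.22 (SE 0.0878, adjusted p = 0.182). The intervals allowed 0.819 to 1.04 times the Cre-negative level for Bmpr1a and 1.01 to 1.33 times for Bmpr2. At an unadjusted p under 0.05, which 23.5% of all genes tested reached, edgeR had Bmpr2 as 1 of the 2 receptors, and DESeq2 and limma voom called 0 of the 2 after adjustment.

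Grem1, which encodes the secreted BMP antagonist gremlin 1, fell from low counts to almost none. It had 164, 125 and 22 counts in Cre-negative replicates 1, 2 and 3 and 3, 4 and 0 in the Cre-positive ones, or 2.70, 2.24 and 0.391 CPM against 0.0563, 0.0702 and 0 CPM. The groups did not overlap, but Cre-negative replicate 3 lay far below the other 2 libraries of its genotype. Summed over libraries, 311 counts stood against 7, which after scaling by library size is a ratio of 42.1 with an exact conditional 95% interval of 20.2 to 106, which covers counting error only. In the fit, the log2 fold change was -5.31 (SE 0.97, adjusted p = 0.0171, 95% interval -7.55 to -3.08), and the exact p was 0.1. The call ended without Cre-positive replicate 1 (adjusted p = 0.0766), 2 (0.0703) or 3 (0.0628), and Grem1 was not tested where at least 1 CPM in 3 libraries was required.

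Bambi, which encodes a receptor decoy without a kinase domain that dampens TGF-beta and BMP signals, did not pass. It stood at 7.43, 4.78 and 8.64 CPM in Cre-negative and 11.6, 10.3 and 10.9 CPM in Cre-positive libraries, without overlap. Its log2 fold change, 0.65 (adjusted p = 0.103, SE 0.21), had a 95% interval of 0.17 to 1.14. It passed with DESeq2 (adjusted p = 0.0299) and without Cre-negative replicate 3 (0.0475). Groups that did not overlap were seen for 4 of the 10 genes, Bmp2, Grem1, Bambi and Id1, against 29.7% of all genes tested. Of the 4, 2 were higher and 2 lower in Cre-positive, against 15.2% higher and 14.5% lower over all genes.

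The other secreted regulators of the pathway were taken from a list of 17. Of the 16 tested, 1 rose, 1 fell and 14 did not pass, with a median log2 fold change of 0.21. Over all genes tested, 7.55% passed in either direction, and the median was -0.001. At an unadjusted p under 0.05, which 23.5% of all genes tested reached, edgeR had 6 of the 16. After adjustment DESeq2 called 4 of the 16 and limma voom 3, against 2697 and 1649 of all 19927 genes tested. Fst, which encodes follistatin, an activin trap that also binds some BMPs, fell from 17.6, 19.8 and 10.7 CPM in Cre-negative to 8.78, 5.97 and 6.35 CPM in Cre-positive libraries. Its log2 fold change was -1.19 (SE 0.25, adjusted p = 0.0253). Kcp, whose product kielin/chordin-like protein is known to enhance BMP7 signalling in the kidney, rose from 16.5, 12.7 and 16.3 to 20.7, 21.3 and 22.8 CPM. Its log2 fold change was 0.51 (SE 0.12, adjusted p = 0.0414). Cre-negative replicate 3 was the lowest Cre-negative library for both Grem1 and Fst. The calls of Fst and Kcp ended without Cre-negative replicate 2 (adjusted p = 0.0684 and 0.0802) and without Cre-positive replicate 2 (0.103 and 0.117) or 3 (0.112 and 0.161). That of Fst also ended without Cre-negative replicate 1 (0.0642), and that of Kcp without Cre-positive replicate 1 (0.0970).

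Markers of parietal and injured epithelium moved with these antagonists. Of 8 such markers 4 fell, none rose and 4 did not pass, and their summed level was 858, 468 and 384 CPM in Cre-negative replicates 1, 2 and 3 and 285, 318 and 263 CPM in the Cre-positive ones. None of the 8 was at 0 in all libraries, and the least abundant, Cd44, reached 17.3 CPM. Their part in the differences of Grem1 and Fst was not tested. Of 8 macrophage markers 1 fell, with summed levels of 171 to 314 CPM in Cre-negative and 170.4 to 185 CPM in Cre-positive libraries. Of 7 mesangial markers 2 rose and 1 fell, with 183 to 223 and 222 to 243 CPM. The shares over all genes tested were 3.73% higher and 3.82% lower.

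**Figure D4:**
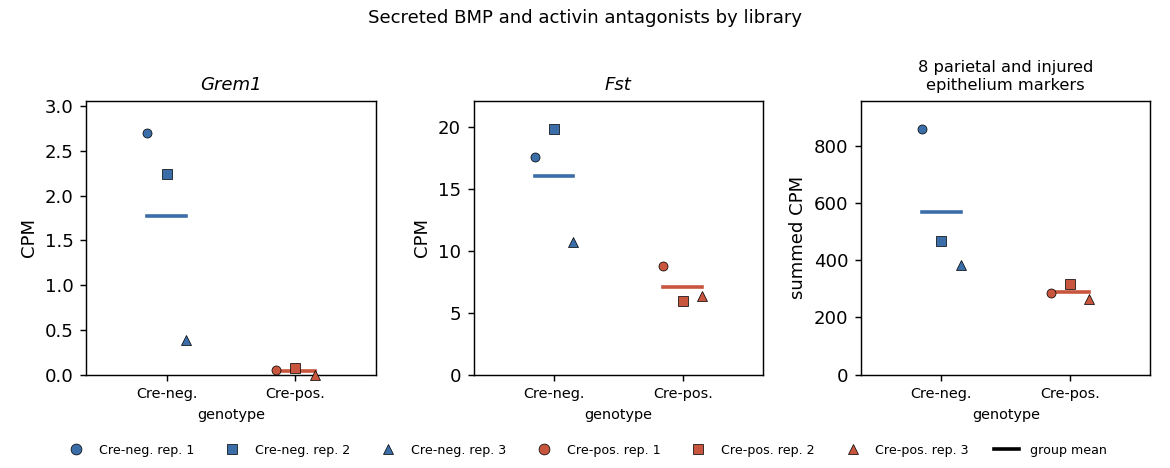
CPM of Grem1 and Fst and the summed CPM of 8 parietal and injured epithelium markers (vertical axes from 0) in each library, with bars at the group means. In all 3 panels the Cre-positive points lie below the Cre-negative ones, and Cre-negative replicate 3 is the lowest of its genotype.

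Id1 fell and Id3 did not pass. Both encode inhibitors of DNA binding, small helix-loop-helix proteins that block differentiation factors and whose genes respond to BMP quickly. Id1 stood at 47.4, 59.1 and 68.7 CPM in Cre-negative and 38.5, 34.6 and 35.3 CPM in Cre-positive libraries, 58.4 ± 10.6 against 36.2 ± 2.08 CPM (SD, n = 3). The groups did not overlap, and the Cre-positive libraries lay close together. Id1 was at 0.619 times the Cre-negative level, with a log2 fold change of -0.69 (adjusted p = 0.0158, SE 0.13, 95% interval -0.98 to -0.40) and an exact p of 0.1. The call ended without Cre-positive replicate 2 (adjusted p = 0.0735) or 3 (0.0792).

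Id3 stood at 97.2, 78.1 and 113 CPM in Cre-negative and 76.3, 89.4 and 76.6 CPM in Cre-positive libraries. Cre-negative replicate 2 lay among the Cre-positive values. The log2 fold change was -0.25 (SE 0.13, adjusted p = 0.299), and its interval allowed 0.682 to 1.04 times the Cre-negative level. The difference between Id1 and Id3 was tested on the log2 ratio of their counts, which no library scaling can change: it was -0.72 ± 0.32 in Cre-negative and -1.16 ± 0.19 in Cre-positive libraries (SD, n = 3), with overlapping groups and a two-sided exact permutation p of 0.2. This test cannot go below 0.1, so it leaves the question of a difference between Id1 and Id3 undecided.

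The other listed targets had 0 calls among 7 tested in edgeR, with 1 at an unadjusted p under 0.05 (23.5% over all genes tested), 1 with DESeq2 and 0 with limma voom. That gene was Id2, which had 293, 268 and 326 CPM in Cre-negative and 244, 189 and 228 CPM in Cre-positive libraries, without overlap. Its log2 fold change of -0.42 (SE 0.11) had an adjusted p of 0.0553. Id2 passed with DESeq2 (adjusted p = 0.00481), with no filter on low counts (0.0460) and with at least 1 CPM in 3 libraries (0.0474). Id4, given to complete the family, stood at 45.0, 45.4 and 80.6 CPM in Cre-negative and 66.9, 66.4 and 64.0 CPM in Cre-positive libraries, with 0.21 (SE 0.23, adjusted p = 0.653) as its log2 fold change. Endothelial cells are known to express Id1 and Id3 strongly, and the endothelial markers given with Bmp2 were higher where Id1 was lower; their part in the Id1 difference was not tested.

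**Figure D5:**
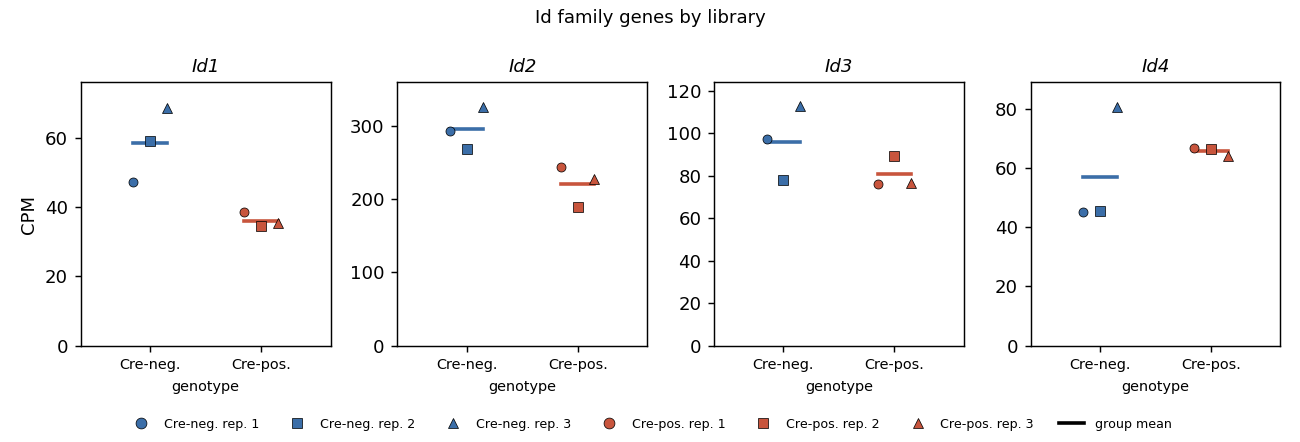
CPM of Id1, Id2, Id3 and Id4 (vertical axes from 0, one scale per gene) in each library, with bars at the group means. The Cre-positive points lie below all Cre-negative points for Id1 and Id2, and the groups overlap for Id3 and Id4.

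The rest of the pathway was given by lists of other ligands, receptors, and SMADs with their ubiquitin ligases. With the secreted regulators and targets above these made 50 genes. Of the 44 tested, 2 rose, 1 fell and 41 did not pass, with a median log2 fold change of 0.20. Over all genes tested, 7.55% passed (3.73% higher and 3.82% lower), and the median was -0.001. Of 8 tested receptors and co-receptors, Eng alone passed. Eng encodes endoglin, the endothelial co-receptor for BMP9 and BMP10, and rose from 165, 189.6 and 197 to 226, 288 and 261 CPM. Its log2 fold change was 0.49 (SE 0.11, adjusted p = 0.0268). Its call ended without Cre-negative replicate 1 (0.0596) or 2 (0.0564) and without Cre-positive replicate 2 (0.105) or 3 (0.109). The endothelial marker levels given with Bmp2 moved with it too, and their part was not tested.

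The 8 SMADs and ubiquitin ligases had 0 calls in edgeR, with 3 at an unadjusted p under 0.05 (23.5% over all genes tested), and 0 with DESeq2 or limma voom. Smad5, a signal transducer of BMP receptors, had the smallest p there, with 76.6, 76.4 and 71.4 CPM in Cre-negative and 94.2, 80.8 and 89.8 CPM in Cre-positive libraries. Its log2 fold change was 0.24 (SE 0.0773, adjusted p = 0.102). The inhibitory Smad6 and Smad7, which BMP and TGF-beta signals induce as feedback, had log2 fold changes of 0.28 (adjusted p = 0.207) and 0.47 (adjusted p = 0.353). Of 9 other ligands 5 were tested, with 0 calls in edgeR, 1 at an unadjusted p under 0.05, and 0 with DESeq2 or limma voom. That gene was Gdf5, a BMP-type ligand of joints and cartilage, with 14, 19 and 4 counts in Cre-negative and 48, 39 and 24 in Cre-positive libraries and a log2 fold change of 1.65 (adjusted p = 0.144, SE 0.61). Bmp10 had 0 counts in all libraries.

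The genes whose log2 CPM followed a member most closely over the 6 libraries were ranked by Pearson's r among 10626 genes or more. With so few libraries such r values are a description only. For Id1 they were Lgals4 (r = 0.990) and Tjap1 (0.986), for Grem1 Cyp2s1 (0.999) and Alkbh3 (0.998), for Bmp7 Mrpl17 (0.995) and Adipor2 (0.994), and for Bambi Trib2 (0.997) and P3h3 (0.991).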

How the data were processed

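Polyadenylated RNA of isolated glomeruli was sequenced as read pairs from strand-marked (dUTP) libraries, per the labels' protocols. Per the submitters' processing notes, HISAT2, StringTie, fastp, edgeR and the build GRCm39 were used; no version or role is listed. Whole-number counts for each Ensembl gene were deposited in 1 table covering all 6 libraries. How strand and multiply matching reads were handled, and the annotation release, is not given in the sources used here. Symbols were matched for 51880 of 57132 rows. Counts were analysed with R 4.3.3 and edgeR 4.0.16 (filterByExpr, TMM, quasi-likelihood test with robust=TRUE, Benjamini-Hochberg over 19927 genes, threshold 0.05). The scripts were tested on simulated data. There edgeR called 19.7% of 1.5-fold, 50.7% of 2-fold and 84.5% of 4-fold changes, and 7 of 106 calls were false. A gene that did not pass may thus still differ by such folds where its confidence interval allows them. The simulated data gave 106 calls against 1505 in the real data, and whether the rates carry over was not tested. Among members that did not pass, the interval of Bambi allowed 1.13 to 2.20 times the Cre-negative level and that of Bmp7 0.664 to 1.10 times. The intervals of Bmp4, Bmp6, Bmpr1a, Bmpr2 and Id3 excluded a 1.5-fold change, and none of these intervals reached 4-fold. Each standard error is the absolute log2 fold change over the root of the F statistic. CPM values use TMM-scaled library sizes, and log2 CPM a prior count of 2. Alternatives were other scalings, DESeq2 1.42.0, limma 3.58.1 voom with quality weights, other filters, a replicate block and each library left out. All 10 members were named, with every other listed pathway gene that passed and, in lists where none did, that with the smallest p. Id4, Smad6, Smad7 and Bmp10 were named outside this rule. For each member the 2 genes most alike in log2 CPM were sought among those that averaged 3 or more in log2 CPM and had an assigned symbol. 1 listed gene is not reported here. Members and lists were chosen with earlier results of these data known. Every comparison of 2 libraries gave a chi-square per degree of freedom of at least 20.6 over genes with at least 50 counts, above sampling noise.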

Additional observations from a re-analysis of the deposited data

How the results depend on the processing

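The 10 genes of the group kept their direction under every alternative that was run. At an adjusted p threshold of 0.01 in place of 0.05, 414 genes passed in all, 0 of the 10 members and 0 of the 44 other pathway genes in edgeR. At an unadjusted p under 0.05 there were 5 members and 12 other pathway genes, against 23.5% of all genes tested; at an adjusted 0.05 DESeq2 called 4 members and limma voom 3. With DESeq2, 2697 genes and 6 other pathway genes passed, against 1505 and 3 in the edgeR fit; the cause was not tested. Leaving out 1 library gave between 462 and 2039 genes in all, between 0 and 4 members and between 0 and 7 other pathway genes; members had 0 calls without Cre-positive replicate 2 or 3 (6 and 4 with an unadjusted p under 0.05) and 1 without Cre-positive replicate 1. Other pathway genes had 0 calls without Cre-negative replicate 2 or Cre-positive replicate 2 or 3 (12, 8 and 10 with an unadjusted p under 0.05). With a replicate block, 1541 genes, 3 members and 5 other pathway genes passed, Id2 among them (adjusted p = 0.0271). The replicate numbers were not taken to pair the libraries: deviations of same-numbered libraries from their group means correlated at 0.0547, 0.0551 and 0.0173, although each of the 6 libraries correlated best with its own number, a hint from the data and not from the design. RLE and upper-quartile factors called 3 members each. Grem1 could not be tested at 1 CPM in 3 libraries, and its level in Cre-positive libraries is limited by counts of 4 or fewer.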

Other observations

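Ratios of counts within a library do not depend on how libraries are scaled. The following were chosen after their values were seen, 4 of them beside that of Id1 over Id3, and none can go below the smallest exact p of 0.1. The log2 ratio of Bmp2 to Bmp4 was -5.17, -4.74 and -4.54 in Cre-negative and -3.47, -3.40 and -3.24 in Cre-positive libraries, a difference of 1.45 (exact p = 0.1), which restates the rise of Bmp2 over a Bmp4 level that did not pass. The log2 ratio of Bmpr2 to Bmpr1a was -0.63, -0.44 and -0.24 in Cre-negative and -0.09, -0.12 and -0.11 in Cre-positive libraries, a difference of 0.33 (exact p = 0.1). The share of ratios that do not overlap was not computed; for single genes it was 29.7%.

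Reads of the antagonist Fst per read of the ligand Bmp7 were lower in the Cre-positive libraries. The log2 ratio of Fst to Bmp7 was -1.63, -1.90 and -2.10 in Cre-negative and -2.52, -3.11 and -2.90 in Cre-positive libraries (exact p = 0.1). This difference of -0.97 restates the fall of Fst over a Bmp7 level that did not pass. The log2 ratio of Id1 to Id2 overlapped between genotypes, at -2.35 ± 0.24 and -2.60 ± 0.13 (SD, n = 3; exact p = 0.2).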
